A study of Mus musculus with 4 samples.

Results

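The genes described here are 10 components of MHC antigen presentation in mouse, taken by name after the Entrez identifiers of the count files had been matched to symbols. All 10 were found among the 27179 identifiers and all 10 passed the filter on low counts, which left 16918 genes. Of these, 5 belong to the class II pathway (H2-Aa, H2-Ab1, H2-Eb1, Cd74 and Ciita), and the others to the class I pathway (B2m, H2-K1, H2-D1, Tap1 and Tap2). The study compared L4-6 lumbar cord taken from male C57BL/6J mice 28 days after a cuff was placed around the sciatic nerve, a model of lasting neuropathic pain, with that of mice given sham surgery. Each group holds 2 poly(A)-selected RNA-seq libraries, numbered 1 and 2 in the labels, with 36074864 and 32936609 counts in the cuff-labelled libraries, against 39461573 and 38823517 in the sham-labelled libraries. Groups follow the sample titles. The deposited files, however, bear the other condition in their names for all 4 libraries, so every direction given here holds for the titles and would be opposite under the file names. The labels do not say whether the libraries came from separate animals, and the p-values measure the spread between these libraries. The sources used here do not give the age of the mice. Spinal cord genes such as Mbp, Chat and Hoxc10 were present in all libraries. The second library labelled cuff stood apart in genes of muscle, sensory ganglia and peripheral nerve. The sodium channel gene of sensory neurons Scn10a had 213 counts there and 0 in the other libraries.

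MHC class I molecules are carried by nearly all nucleated cells and show peptides from inside the cell to CD8 T cells. They consist of a heavy chain, encoded by H2-K1 and H2-D1 in this strain, and beta-2 microglobulin, encoded by B2m. Their peptides are pumped into the endoplasmic reticulum by the transporter formed by Tap1 and Tap2. Class II molecules are restricted to professional antigen-presenting cells and show peptides taken up from outside to CD4 T cells. H2-Aa and H2-Ab1 encode the alpha and beta chains of the I-A molecule, H2-Eb1 encodes the beta chain of I-E, Cd74 encodes the invariant chain that guides class II molecules to the endosome, and Ciita encodes their master transcriptional coactivator. In the healthy cord class II is borne mainly by macrophages and dendritic cells of the meninges and perivascular spaces and little by resting microglia, which can induce it after nerve injury and under interferon gamma.

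Most of these genes lie in the MHC on chromosome 17, and RefSeq promoter windows (GRCm38.p6, 250 bases before the start of the gene and 50 after it) were at hand for 6 of the 10. Those of H2-Aa and H2-Eb1 are shown because these genes varied together between libraries, and those of H2-K1 and H2-D1 because their levels stayed close to each other. Capitals mark the X box core GCAAC where a Y box, CTGATTGG, follows it, that Y box, and in the H2-Aa window also the cAMP response element TGACGTCA between them. In the class I windows the first run of capitals is the kappa B site, the second the class I interferon response element and the third a Y box on the opposite strand. The H2-K1 window is set on a start that lies inside the annotated span of the gene.
H2-Aa, chr17:34287774-34288073, minus strand: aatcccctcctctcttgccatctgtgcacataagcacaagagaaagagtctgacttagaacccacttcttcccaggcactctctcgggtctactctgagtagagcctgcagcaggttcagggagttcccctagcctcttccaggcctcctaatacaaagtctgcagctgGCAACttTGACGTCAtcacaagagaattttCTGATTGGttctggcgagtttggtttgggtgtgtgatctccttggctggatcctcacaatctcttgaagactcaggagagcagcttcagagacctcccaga
H2-Eb1, chr17:34305617-34305916, plus strand: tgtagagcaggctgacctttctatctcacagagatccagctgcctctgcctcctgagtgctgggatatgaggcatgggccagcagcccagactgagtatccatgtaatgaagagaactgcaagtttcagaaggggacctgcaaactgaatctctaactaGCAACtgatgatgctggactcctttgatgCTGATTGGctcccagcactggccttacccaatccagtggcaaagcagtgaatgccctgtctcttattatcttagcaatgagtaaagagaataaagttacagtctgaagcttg
H2-K1, chr17:34000298-34000597, minus strand: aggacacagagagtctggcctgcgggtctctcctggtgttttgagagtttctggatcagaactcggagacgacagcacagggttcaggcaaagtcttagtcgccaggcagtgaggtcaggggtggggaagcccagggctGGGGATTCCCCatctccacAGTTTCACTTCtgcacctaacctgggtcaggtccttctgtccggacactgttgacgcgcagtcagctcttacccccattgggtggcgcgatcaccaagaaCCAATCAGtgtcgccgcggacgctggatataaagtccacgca
H2-D1, chr17:35262844-35263143, plus strand: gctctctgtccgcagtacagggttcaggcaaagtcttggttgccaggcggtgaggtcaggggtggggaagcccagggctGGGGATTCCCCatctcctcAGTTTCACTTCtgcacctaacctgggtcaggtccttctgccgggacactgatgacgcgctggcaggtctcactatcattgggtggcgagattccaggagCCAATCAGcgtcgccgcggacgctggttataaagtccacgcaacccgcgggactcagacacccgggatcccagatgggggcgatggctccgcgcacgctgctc

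An X box core followed by a Y box within 40 bases, on either strand, was found in 54 of 32851 promoter windows (0.164%), and both class II windows hold one, with 25 bases between the 2 motifs in H2-Aa and 24 in H2-Eb1. The kappa B site in capitals was in 10 windows (0.0304%) and the class I interferon response element in 17 (0.0517%), and H2-K1 and H2-D1 hold both. Taken singly, the X box core was in 35.2% of windows, the Y box in 4.1% and the cAMP response element in 1.79%. Over 240 aligned columns the H2-K1 and H2-D1 windows were 87.9% identical. The same 6 motifs were searched on both strands of every window, the sixth being the interferon-stimulated response element, which was in 3.44% of windows and, among the 6 members, in that of B2m. A match describes the letters and was not tested as a binding site. Since the class I heavy chain genes resemble each other, windows of 150 bases, the length of a read, were compared between transcripts in GENCODE M21. None of the 1725 windows of the longest H2-K1 transcript occurred exactly in another gene, and 35 of 1953 windows of H2-D1 (1.79%) occurred in H2-Q1. The other 8 members shared none. This counts exact matches only, and the sources used here do not say how reads that fit several genes were counted.

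Per length of the longest transcript, the class I molecules exceeded the class II genes, and the transporter genes lay among the class II genes. B2m had the highest level, 151.8 ± 17.0 CPM per kb (counts relative to library size, mean ± SD over the 4 libraries), followed by H2-D1 (27.3 ± 3.98) and H2-K1 (22.7 ± 2.69), whose ranges over libraries overlapped. Cd74 was next at 8.94 ± 5.58 CPM per kb. H2-Ab1 (4.25 ± 2.46), H2-Eb1 (3.90 ± 1.84), Tap2 (2.86 ± 0.676) and H2-Aa (2.75 ± 1.20) followed, and from Cd74 to H2-Aa each gene overlapped the next in range. Tap1 was lower, at 1.03 ± 0.301 CPM per kb. The coactivator gene Ciita had the lowest level, 0.274 ± 0.0664 CPM per kb, from only 48 to 85 counts per library. Gaps without overlap stood between B2m and H2-D1, between H2-K1 and Cd74, between H2-Aa and Tap1, and between Tap1 and Ciita. The order of H2-Aa and H2-Ab1 rested on the lengths used, 3223 and 1212 bases. In CPM alone H2-Aa was the higher, with a mean of 8.85 against 5.15.

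None of the 10 members passed the test between groups (edgeR's quasi-likelihood test, p-values adjusted over all tested genes after Benjamini and Hochberg, threshold 0.05), where 4.11% of all tested genes did. DESeq2 and limma-voom called 0 of them as well. One member, Tap1, had an unadjusted p under 0.05, as did 21.5% of all tested genes. The log2 fold change, labelled cuff minus labelled sham, was positive for 8 members and negative for B2m and Ciita, with a median of 0.33 against 0.02 over all tested genes. For 3 of the 10 the groups did not overlap, which held for 54.1% of all tested genes. H2-D1 and Tap1 were higher in the cuff-labelled libraries (28.2% of all tested genes) and B2m was lower (25.9%). With 2 libraries in each group no exact permutation test can reach p = 0.05, and the fitted tests lean on the spread shared between genes. With the replicate number as a block, 1 member passed, Cd74, where 3.27% of all tested genes did.

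**Figure D1:**
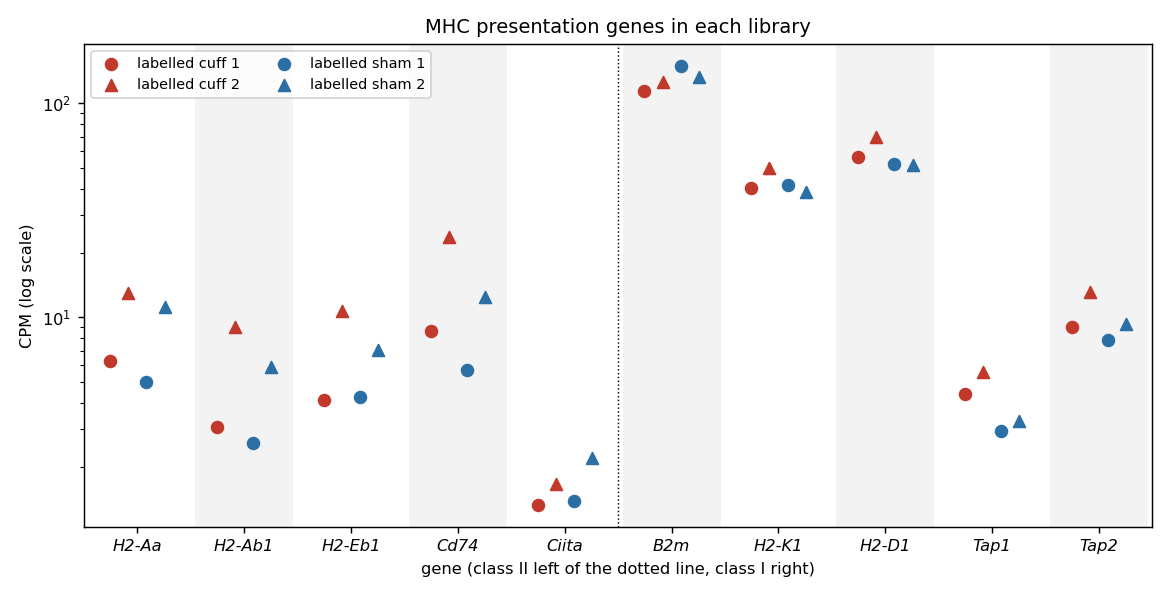
CPM of the 10 MHC presentation genes (log axis) in the 4 libraries, with circles for the first and triangles for the second library of each group, the cuff-labelled libraries in red and the sham-labelled libraries in blue. In H2-Aa, H2-Ab1, H2-Eb1, Cd74, Ciita and Tap2 both triangles lie above both circles, by most in the first 4 of these, while B2m, H2-K1 and H2-D1 lie close together.

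The class II chains separated the libraries by their number and not by their group. H2-Aa (chr17:34282744-34287823) had 6.24 and 13.01 CPM in the cuff-labelled libraries and 4.97 and 11.2 CPM in the sham-labelled libraries. The second library was thus high and the first low in both groups, which overlapped widely. H2-Ab1 (chr17:34263227-34269418) had 3.08 and 9.05 CPM in the cuff-labelled libraries and 2.59 and 5.88 CPM in the sham-labelled libraries. H2-Eb1 (chr17:34305867-34316674) had 4.10 and 10.7 CPM in the cuff-labelled libraries, against 4.26 and 7.02 CPM in the sham-labelled libraries. In each of these genes the second library labelled cuff was highest and the second labelled sham next. The fold change was 0.25 ± 0.66 (log2 ± SE, 95% interval -1.91 to 2.42, adjusted p = 0.878, edgeR) for H2-Aa. It was 0.52 ± 0.80 (-2.04 to 3.07, adjusted p = 0.784, edgeR) for H2-Ab1 and 0.39 ± 0.57 (-1.21 to 1.99, adjusted p = 0.765, edgeR) for H2-Eb1. These intervals cover changes of several-fold in both directions. Without the first library labelled cuff, H2-Ab1 was at 1.05 and H2-Eb1 at 0.87. Without the second they were at -0.46 each, and H2-Aa was at -0.37.

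Cd74, the invariant chain gene (chr18:60803849-60812652), had 8.65 and 23.7 CPM in the cuff-labelled libraries and 5.68 and 12.5 CPM in the sham-labelled libraries. Its order of libraries was that of H2-Aa and H2-Ab1, from the second labelled cuff through the second labelled sham and the first labelled cuff to the first labelled sham. The groups overlapped, and the fold change of 0.83 ± 0.85 (log2 ± SE, 95% interval -2.41 to 4.07) did not pass (adjusted p = 0.681, edgeR). It was 1.34 (adjusted p = 6.54e-07) without the first library labelled cuff and -0.07 (adjusted p = 0.989) without the second. Ciita, which switches on the class II genes, also had both second libraries above both first ones, by less and with the sham-labelled one on top. The gene (chr16:10480014-10531064) had 1.33 and 1.67 CPM (48 and 57 counts) in the cuff-labelled libraries and 1.39 and 2.20 CPM (53 and 85 counts) in the sham-labelled libraries. The 95% Poisson intervals of the counts in the cuff-labelled libraries, 35.4 to 63.6 and 43.2 to 73.9, both overlapped that of the first labelled sham, 39.7 to 69.3. The second labelled sham had 67.9 to 105.1, which overlapped the second labelled cuff and the first labelled sham and lay above the first labelled cuff. The fold change of Ciita was -0.26 ± 0.40 (log2 ± SE, adjusted p = 0.76, edgeR).

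Differences between libraries of the same group were large for the class II chains beside other genes. The second library labelled cuff had 2.09 times the CPM of the first for H2-Aa, 2.94 times for H2-Ab1, 2.60 times for H2-Eb1 and 2.73 times for Cd74. The corresponding ratios in the libraries labelled sham were 2.25, 2.27, 1.65 and 2.20. Over all tested genes the fold between the libraries of a group had a median of 1.13 in the cuff-labelled libraries and 1.15 in the sham-labelled libraries, and a 90th percentile of 1.67 and 1.60. A second library at least 1.5 times the first in both groups was found in 532 of 16918 genes (3.14%), and 4 of the 10 members, the class II chains and Cd74, were among them. Over the 4 libraries the log2 level of these 4 genes had an SD between 0.65 (H2-Eb1) and 0.87 (Cd74), against 0.16 for B2m, 0.16 for H2-K1, 0.20 for H2-D1 and a median of 0.21 over all tested genes.

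**Figure D2:**
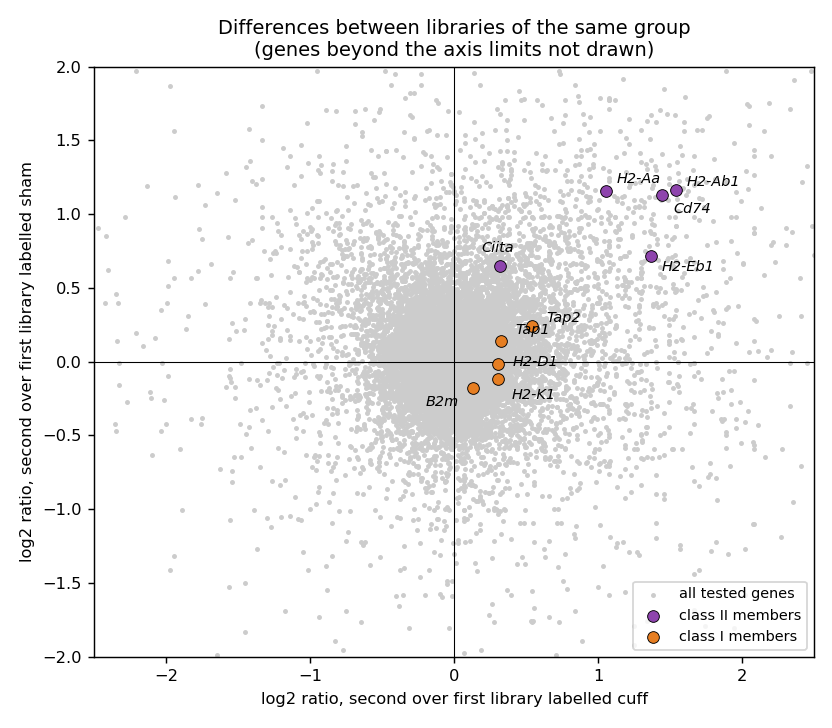
Log2 ratio of the second to the first library labelled cuff (horizontal axis) and labelled sham (vertical axis), with all tested genes in grey, class II members in purple and class I members in orange. H2-Aa, H2-Ab1, H2-Eb1 and Cd74 lie in the upper right, with ratios of 2.09 to 2.94 in the cuff-labelled libraries and 1.65 to 2.27 in the sham-labelled libraries, and the class I members lie near the centre.

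The class I molecules varied little between libraries. B2m (chr2:122147687-122153082) had 114.8 and 125.4 CPM in the cuff-labelled libraries and 149.7 and 132.3 CPM in the sham-labelled libraries. The groups did not overlap, and B2m was the one class I member with a negative fold change, -0.23 ± 0.13 (log2 ± SE, 95% interval -0.51 to 0.05, adjusted p = 0.326, edgeR). H2-K1 (chr17:33996012-34000619) had 40.5 and 49.9 CPM in the cuff-labelled libraries and 41.6 and 38.4 CPM in the sham-labelled libraries. Its first library labelled cuff lay between the sham-labelled libraries. H2-D1 (chr17:35263094-35267497) had 56.3 and 69.5 CPM in the cuff-labelled libraries and 52.1 and 51.6 CPM in the sham-labelled libraries, so that both cuff-labelled libraries lay above both sham-labelled ones. Neither heavy chain gene passed the test, with 0.18 ± 0.14 (95% interval -0.12 to 0.47, adjusted p = 0.503, edgeR) for H2-K1 and 0.28 ± 0.14 (-0.01 to 0.57, adjusted p = 0.245, edgeR) for H2-D1. These intervals are narrow beside those of class II, with upper bounds of 0.47 and 0.57. With each library corrected for transcript length and GC content the median of the 3 genes was 0.02, against 0.18 without the correction, and H2-D1 was at 0.08.

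The peptide transporter genes had the smallest p-value and the third smallest among the members. Tap1 (chr17:34187556-34197225) had 4.41 and 5.54 CPM (159 and 189 counts) in the cuff-labelled libraries and 2.96 and 3.26 CPM (113 and 126 counts) in the sham-labelled libraries, with no overlap. The fold change was 0.68 ± 0.28 (log2 ± SE, 95% interval 0.09 to 1.26), with an unadjusted p of 0.0263 that did not pass when adjusted (0.169, edgeR) and stood at rank 2637 of the tested genes. Its partner Tap2 (chr17:34204479-34216321) had 9.04 and 13.2 CPM in the cuff-labelled libraries and 7.82 and 9.27 CPM in the sham-labelled libraries. The first library labelled cuff was just below the second labelled sham, and the fold change of 0.38 ± 0.21 (log2 ± SE) did not pass (adjusted p = 0.319, edgeR). Without the second library labelled cuff, Tap1 was at 0.50 and Tap2 at 0.08. With the length and GC correction Tap2 was at 0.14.

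**Figure D3:**
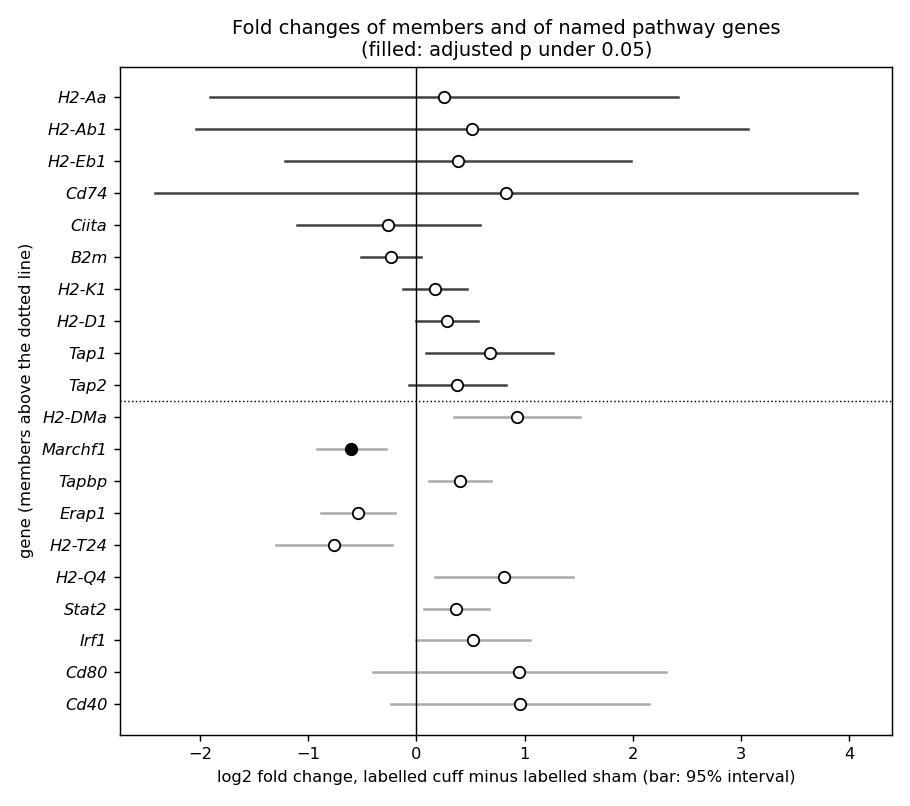
Log2 fold changes, labelled cuff minus labelled sham, with 95% intervals, for the 10 members above the dotted line and for 10 named genes of the wider pathway below it. Only Marchf1 (-0.60) is filled, for an adjusted p under 0.05, and the intervals of the class II chains and Cd74 are the widest.

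The wider pathway was described by 5 lists with 59 genes, of which 54 were tested. One fell in the cuff-labelled libraries (lower calls over all tested genes, 2.96%), none rose (higher calls, 1.15%), and the median log2 fold change was 0.18. The gene that fell was Marchf1, which encodes a membrane ubiquitin ligase that sends class II molecules and CD86 to lysosomes for degradation. It had 15.9 and 16.5 CPM in the cuff-labelled libraries and 23.2 and 25.96 CPM in the sham-labelled libraries. The libraries of each group lay close together, and the fold change was -0.60 ± 0.15 (log2 ± SE, adjusted p = 0.0357, edgeR). Correcting for transcript length and GC content ended the call (-0.34, adjusted p = 0.231). The adjusted p was 0.0513 with the replicate number as a block, 0.0728 with limma-voom and 0.0628 with a prior that is not robust. The call was also lost without the second library labelled cuff (-0.63, adjusted p = 0.266) and without the first (-0.70, adjusted p = 0.213) or the second labelled sham (-0.52, adjusted p = 0.19).

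Of 14 class II accessory genes 12 were tested, with a median of 0.06, and apart from Marchf1 none passed. H2-DMa encodes a chain of the H2-DM molecule, which exchanges the invariant chain peptide for antigen. It had 6.63 and 12.2 CPM in the cuff-labelled libraries and 4.63 and 5.23 CPM in the sham-labelled libraries, with no overlap (0.93 ± 0.27 log2, adjusted p = 0.0689, edgeR). It was the gene of the list nearest to the threshold after Marchf1. Without the first library labelled cuff it was at 1.26, and without the second at 0.43. The beta chain gene H2-DMb1 followed the class II chains instead, with 1.97 and 8.06 CPM in the cuff-labelled libraries and 2.07 and 3.32 CPM in the sham-labelled libraries. Ifi30, the thiol reductase of the endosome, had 4.08 and 8.23 CPM in the cuff-labelled libraries and 2.90 and 3.29 CPM in the sham-labelled libraries (adjusted p = 0.0884, edgeR). The endosomal protease gene Ctss, which trims the invariant chain, had 73.4 and 61.0 CPM in the cuff-labelled libraries and 104.2 and 82.3 CPM in the sham-labelled libraries (adjusted p = 0.0754, edgeR). The genes of the RFX complex that binds the X box, Rfx5, Rfxap and Rfxank, had fold changes between -0.12 and 0.22. H2-Ea, the partner chain of H2-Eb1, which C57BL/6 mice do not express, had 4 counts in the first library labelled cuff and 0 in the other libraries.

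Of 12 genes for peptide supply and loading on class I none passed, with a median of 0.19. Erap1, the aminopeptidase that trims peptides, had 15.0 and 12.3 CPM in the cuff-labelled libraries and 20.3 and 19.4 CPM in the sham-labelled libraries (-0.54 ± 0.16 log2, adjusted p = 0.0698, edgeR). Tapbp, which encodes tapasin, the bridge between transporter and heavy chain, had 40.6 and 46.4 CPM in the cuff-labelled libraries and 31.1 and 34.7 CPM in the sham-labelled libraries (0.40 ± 0.14 log2, adjusted p = 0.101, edgeR). Both had groups that did not overlap, as did 7 of the 12, near the 54.1% of all tested genes. With the length and GC correction Erap1 was at -0.23 and Tapbp at 0.16. Without the first library labelled cuff Erap1 was at -0.75. The immunoproteasome gene Psmb9, which lies head to head with Tap1, had 34 and 82 counts in the cuff-labelled libraries and 44 and 35 in the sham-labelled libraries. The class I coactivator gene Nlrc5 had 31 and 73 counts in the cuff-labelled libraries and 50 and 30 in the sham-labelled libraries. Both thus had their high value in the second library labelled cuff alone.

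Of 12 other class I genes none passed, with a median of 0.21. H2-T24 had 3.85 and 3.46 CPM in the cuff-labelled libraries and 5.75 and 6.66 CPM in the sham-labelled libraries (-0.76 ± 0.25 log2, adjusted p = 0.0937, edgeR). H2-Q4 had 4.38 and 6.21 CPM in the cuff-labelled libraries and 2.33 and 3.71 CPM in the sham-labelled libraries (0.81 ± 0.30 log2, adjusted p = 0.131, edgeR). H2-Q4 was at 0.99 without the first library labelled cuff, at 0.54 without the second and at 0.49 without the first labelled sham. These genes have close relatives in the same region, and their counts are uncertain.

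Of 15 genes that carry interferon signals to the MHC genes, 13 were tested and none passed, with a median of 0.20. Ifng itself had 2 counts in the first library labelled cuff and 0 in the others, and Ifnb1 had 0 in all 4. Stat2, a transcription factor of the type I response, had 28.6 and 32.99 CPM in the cuff-labelled libraries and 23.8 and 23.96 CPM in the sham-labelled libraries (0.37 ± 0.14 log2, adjusted p = 0.145, edgeR). Irf1, which binds class I promoters, had 6.77 and 7.82 CPM in the cuff-labelled libraries and 4.001 and 6.14 CPM in the sham-labelled libraries (0.52 ± 0.25 log2, adjusted p = 0.236, edgeR). Without the first library labelled sham Irf1 was at 0.23, and without the second at 0.86. Among costimulation genes 5 of 6 were tested and none passed, with Cd40 (0.95, adjusted p = 0.348, edgeR) and Cd80 (0.95, adjusted p = 0.417, edgeR) at 9 to 32 counts per library.

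Markers of several other cell types ordered the libraries as these genes did. The 4 class II genes summed to 22.1 and 56.4 CPM in the cuff-labelled libraries and to 17.5 and 36.5 CPM in the sham-labelled libraries. Markers of B cells, all 7 detected, summed to 4.16 and 12.8 CPM in the cuff-labelled libraries and to 2.90 and 5.29 CPM in the sham-labelled libraries. Those of border macrophages, all 7 detected, summed to 17.3 and 29.0 CPM in the cuff-labelled libraries and to 13 and 23 CPM in the sham-labelled libraries. The 8 markers of leptomeninges and fibroblasts summed to 312.4 and 690.2 CPM in the cuff-labelled libraries and to 182.6 and 363.5 CPM in the sham-labelled libraries. T cell markers were near the limit of detection, with 56 and 101 counts over 7 genes in the cuff-labelled libraries and 48 and 62 in the sham-labelled libraries, and only 2 could be tested. These 4 sums ordered the libraries as the class II sum did, and no gene of the 4 lists passed the test. The 5 monocyte markers summed to 58.0 and 72.4 CPM in the cuff-labelled libraries and to 57.5 and 64.2 CPM in the sham-labelled libraries, in the same order. Vcan made up much of that sum and ran the other way, with 40.4 and 27.98 CPM in the cuff-labelled libraries and 49.7 and 50.6 CPM in the sham-labelled libraries. Of the other monocyte genes only Plac8 had the class II order, and Ly6c2 rose (1.91 log2, adjusted p = 0.0175, edgeR), where 1.15% of all tested genes did. The part of these cells in the class II levels was not tested, and in tissue RNA fewer cells of a type and less RNA per cell cannot be told apart.

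Microglial markers did not share this order, with 365.7 and 310.4 CPM in the cuff-labelled libraries and 395.3 and 374.3 CPM in the sham-labelled libraries over 10 genes, of which none passed. The sum was lowest in the second library labelled cuff, where class II was highest. The dendritic cell list was carried by Flt3, at 32.6 to 36.8 CPM per library. Of the other members Zbtb46 was the highest, with 145 and 113 counts in the cuff-labelled libraries and 122 and 111 in the sham-labelled libraries. Clec9a had 24 and 30 counts in the cuff-labelled libraries and 22 and 18 in the sham-labelled libraries. Itgax had 34 and 12 counts in the cuff-labelled libraries and 11 and 10 in the sham-labelled libraries. Cd209a and Ccr7 had at most 10 counts in any library, and Xcr1 was at 0 in all libraries. Endothelial markers, which can carry class I, summed to 117.5 and 128.6 CPM in the cuff-labelled libraries and to 60.9 and 76.0 CPM in the sham-labelled libraries, and 6 of 9 rose, where 1.15% of all tested genes did. Neutrophil markers summed to 192.5 and 456.4 CPM in the cuff-labelled libraries and to 56.6 and 120.7 CPM in the sham-labelled libraries, and 1 of 7 rose, Mpo, set against the same 1.15%. Their part in the class I and transporter levels was not tested.

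**Figure D4:**
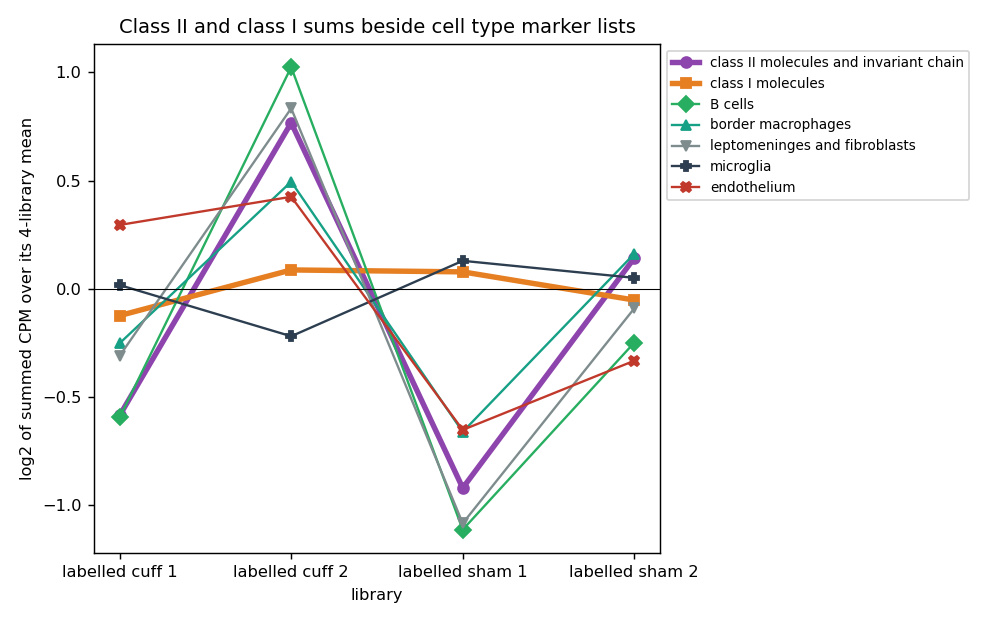
Log2 of the summed CPM of each gene list over its mean of the 4 libraries, for the class II genes (purple), the class I genes (orange) and 5 marker lists. Lines join the libraries for reading only. The class II, B cell, border macrophage and leptomeningeal sums are highest in the second library labelled cuff and lowest in the first labelled sham, and the class I sum, from 211.5 to 244.8 CPM, stays near 0.

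The genes most like the class II profile were sought among 13850 tested genes with a symbol and a mean of at least 1 CPM, by the Euclidean distance of their centred log2 CPM over the 4 libraries. The nearest were Lrmp (0.06), Slfn1 (0.13), Gpc3 (0.15), Slfn4 (0.16) and Lctl (0.16). The 4 class II genes themselves lay 0.16 to 0.34 from their own mean. Lrmp, a gene of lymphocytes, had 1.14 and 3.02 CPM in the cuff-labelled libraries and 0.941 and 1.89 CPM in the sham-labelled libraries, and Gpc3, a glypican gene, had 11.8 and 26.5 CPM in the cuff-labelled libraries and 9.49 and 18.3 CPM in the sham-labelled libraries. For the flatter profile of B2m, H2-K1 and H2-D1 the nearest genes were Ciao2b, H2az2, Gucy2d, Ip6k2 and Drg2, at 0.02 to 0.03. B2m lay 0.32 from that mean profile, farther than the heavy chain genes (0.11 for H2-K1 and 0.22 for H2-D1).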

How the data were processed

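The submitters' processing notes name Trimmomatic 0.30, HISAT2 2.0.1, featureCounts and the build mm10. For each library the authors deposited a file of raw counts by Entrez identifier, not normalized, as the whole-number values show. In 1 file identifier and count were joined by a literal backslash and letter and were split there. Of 27179 identifiers 25275 matched the RefSeq table of GRCm38.p6 and 18 more GENCODE M21. No library was a repeat of another, with chi-square values of 25.4 to 72.7 for each degree of freedom over the 6 pairs.

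From these counts, genes were filtered with filterByExpr, scaled by TMM and compared with the quasi-likelihood test of edgeR 4.0.16 (robust, group as the only term, two-sided) in R 4.3.3. CPM use the TMM-scaled totals. Alternatives used DESeq2 1.42.0, limma 3.58.1 (voom), RLE or upper quartile scaling, a prior that is not robust, other filters, the replicate number as a block, a loess correction for length and GC (span 0.3), a fit without genes of other tissues and each library left out. The steps were tested on simulated data with 200 changed genes. Poisson intervals cover counting error only. Named genes are the members, called pathway genes and the 2 of each pathway list with the smallest p. The nearest genes in profile and, for some marker lists, the gene with the smallest p are also named. H2-DMb1, Ifi30, Ctss, Rfx5, Rfxap, Rfxank, H2-Ea, Psmb9, Nlrc5, Ifng and Ifnb1 were added after their values were seen. So were Plac8, Vcan, Flt3, Xcr1, Zbtb46, Clec9a, Cd209a, Ccr7, Scn10a, Mbp, Chat and Hoxc10. The genes named for their order in the B cell, border macrophage and fibroblast lists were added in the same way. The members and lists were chosen with earlier results of these data known.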

Additional observations from a re-analysis of the deposited data

How the results depend on the processing

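Over 15 alternatives the fold changes of the 10 members gave 150 values, of which 139 kept their direction and their side of the threshold. Without each library in turn, H2-Aa ranged from -0.37 to 0.95 on the log2 scale, H2-Ab1 from -0.46 to 1.22, H2-Eb1 from -0.46 to 0.87, Cd74 from -0.069 to 1.503 and Ciita from -0.57 to 0.11. These 5 changed sign; B2m (-0.32 to -0.16), H2-K1 (0.02 to 0.27), H2-D1 (0.12 to 0.37), Tap1 (0.50 to 0.78) and Tap2 (0.08 to 0.58) did not. H2-Aa was at -0.24 without the first library labelled sham. The number of members called was 0 as reported and 0 to 3 without each library, 3 only without the first labelled cuff, where 11.1% of all genes were called. With 1 library left in a group, it is assumed to vary like the others. Without the first labelled cuff the median prior of the fit was infinite, so most genes took their spread from that shared between genes. The calls of that fit therefore do not measure the members' own spread.

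With the replicate number as a block, 1 member was called, Cd74 (0.78, adjusted p = 0.041), among 554 genes in all. With the block and the length and GC correction it was also 1, Cd74 (0.58, adjusted p = 0.048). Same-numbered libraries deviated together only weakly (correlation of deviations 0.13 across genes) and the labels give the number no meaning. Whether it marks a shared day or batch was not tested. The genes called over all numbered 696 as reported, 1079 with DESeq2, 147 with limma-voom, 237 with a prior that is not robust, 1292 with no filter, 56 with the length and GC correction and 0 to 1928 without each library. It was 1928 without the first labelled cuff, 216 without the second, 0 where the first labelled sham was left out, and 13 where its second was. The pathway genes called numbered 1 as reported and 3 with DESeq2. They numbered 0 with limma-voom, with a prior that is not robust, with the replicate block and with the length and GC correction, 5 with no filter, 2 with block and correction together and 0 to 7 without each library. The cause was not tested. Ciita had the fewest counts of the members, 48 to 85 per library.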
